A study of Mus musculus with 12 samples.

Results

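The genes described here encode interleukins, chemokines, tumour necrosis factor (TNF) family ligands and their receptors, as measured in mouse ileum. They were chosen by name from the 780 genes of a tumour signalling panel. A symbol had to begin with Il and a digit, Ccl, Ccr and a digit, Cxcl, Cxcr, Tnfsf or Tnfrsf, and Il6, Il2rg, Ccr2 and Tnfrsf9 were left out. The rule found 41 of the 780 genes. They were 5 interleukins, 13 interleukin receptors, 6 CC chemokines, 4 CC chemokine receptors, 3 CXC chemokines, 3 CXC chemokine receptors, 4 TNF superfamily ligands and 3 TNF receptors.

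Total ileal RNA came from 12 mice, 3 in each of 4 groups, drawn at random from 8 mice per group. Control mice received oral DMSO, the solvent, once daily for 28 days. Oral STP1002, on the same schedule, was dosed at 5 mg/kg in one group and at 10 mg/kg in another. The last group received G007-LK at 30 mg/kg injected into the peritoneum 2 times daily over 28 days. STP1002 and G007-LK inhibit tankyrases, enzymes that modify axin and so act on Wnt signalling. The oral DMSO group was the sole control, so injection and G007-LK cannot be told apart, and the compounds also differed in dose and in the number of doses per day. Strain, sex and age are not given in the sources used here. The RNA was counted with the nCounter system, in which coloured barcodes attached to gene probes are counted one by one without amplification.

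Interleukins are secreted proteins through which immune, epithelial and stromal cells signal to one another, and most of their receptors act through JAK kinases and STAT transcription factors. Chemokines are small secreted proteins that guide the migration of leukocytes through G-protein-coupled receptors. CC and CXC chemokines are named for the spacing of their first cysteines. TNF family ligands and receptors govern lymphocyte survival, costimulation and inflammation, in large part through NF-kB. The ileum is rich in lymphoid tissue, including Peyer's patches, where several of these systems organise the traffic of B and T cells.

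The values are normalized signals, each a whole barcode count multiplied by 1 factor per library, and are linear. Summed counts per library ranged from 31901 to 508829, and the factors from 0.302 to 3.92. Control replicate 1 (293538 counts) and G007-LK replicate 1 (508829 counts) were the deepest libraries and had the smallest factors. Background was set in each library at the mean plus 2 SD of the 8 negative-control probes times that library's factor, which gave 4.33 to 40.4 signal units. Of 13 small-intestine markers listed for the labelled tissue, Epcam and Cdh1 were measured, and both were above background in all 12 libraries. Summed signals of 13 myeloid markers, among them Cd68 and Cd14, ranged from 799 to 948 in control mice and from 5127 to 10176 in G007-LK mice. Summed signals of 5 epithelial markers ranged from 4104 to 10365 in control mice and from 460 to 1620 in G007-LK mice. Both marker sums thus separated the G007-LK group from the controls without overlap. Against control, limma called 7 of the 13 myeloid and 3 of the 5 epithelial markers (panel 3.46%). The 3 epithelial markers were Erbb3, Sfn and Spint2. Epcam and Cdh1 overlapped between these groups and were not called (limma adjusted p = 0.780 and 0.592). Some myeloid markers, among them Csf1r, Cd86 and Cd80, also overlapped. All 5 epithelial and 6 of the 13 myeloid markers were above background in all libraries, and none was at the floor. Summed signals of 5 fibroblast and matrix markers, each above background in all libraries, were 663 to 1042 in control and 1656 to 2516 in G007-LK mice, also without overlap, and none was called against control. In tissue RNA, fewer cells of a type and less RNA per cell cannot be told apart.

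Of the 41 genes, 26 (63.4%) were above background in every library, against 539 of the 780 panel genes (69.1%). All 4 CC chemokine receptors and all 3 CXC chemokines were among them. Il22ra2, a soluble receptor that binds IL-22, and Il27ra, a subunit of the IL-27 receptor, were at or below background in all 12 libraries, and their folds are not given. Il10, an anti-inflammatory interleukin, was above background in 1 of 12 libraries, G007-LK replicate 1, at 41.7 signal units. Ccl5, a chemokine of T cells, was above background in 2 of 12, G007-LK replicates 1 and 3, at 31.1 and 12.8. Il2ra, the high-affinity subunit of the IL-2 receptor, was above background in 4 of 12 libraries, the first replicate of each group. These last calls depend on the per-library threshold as well as on the signal.

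**Figure D1:**
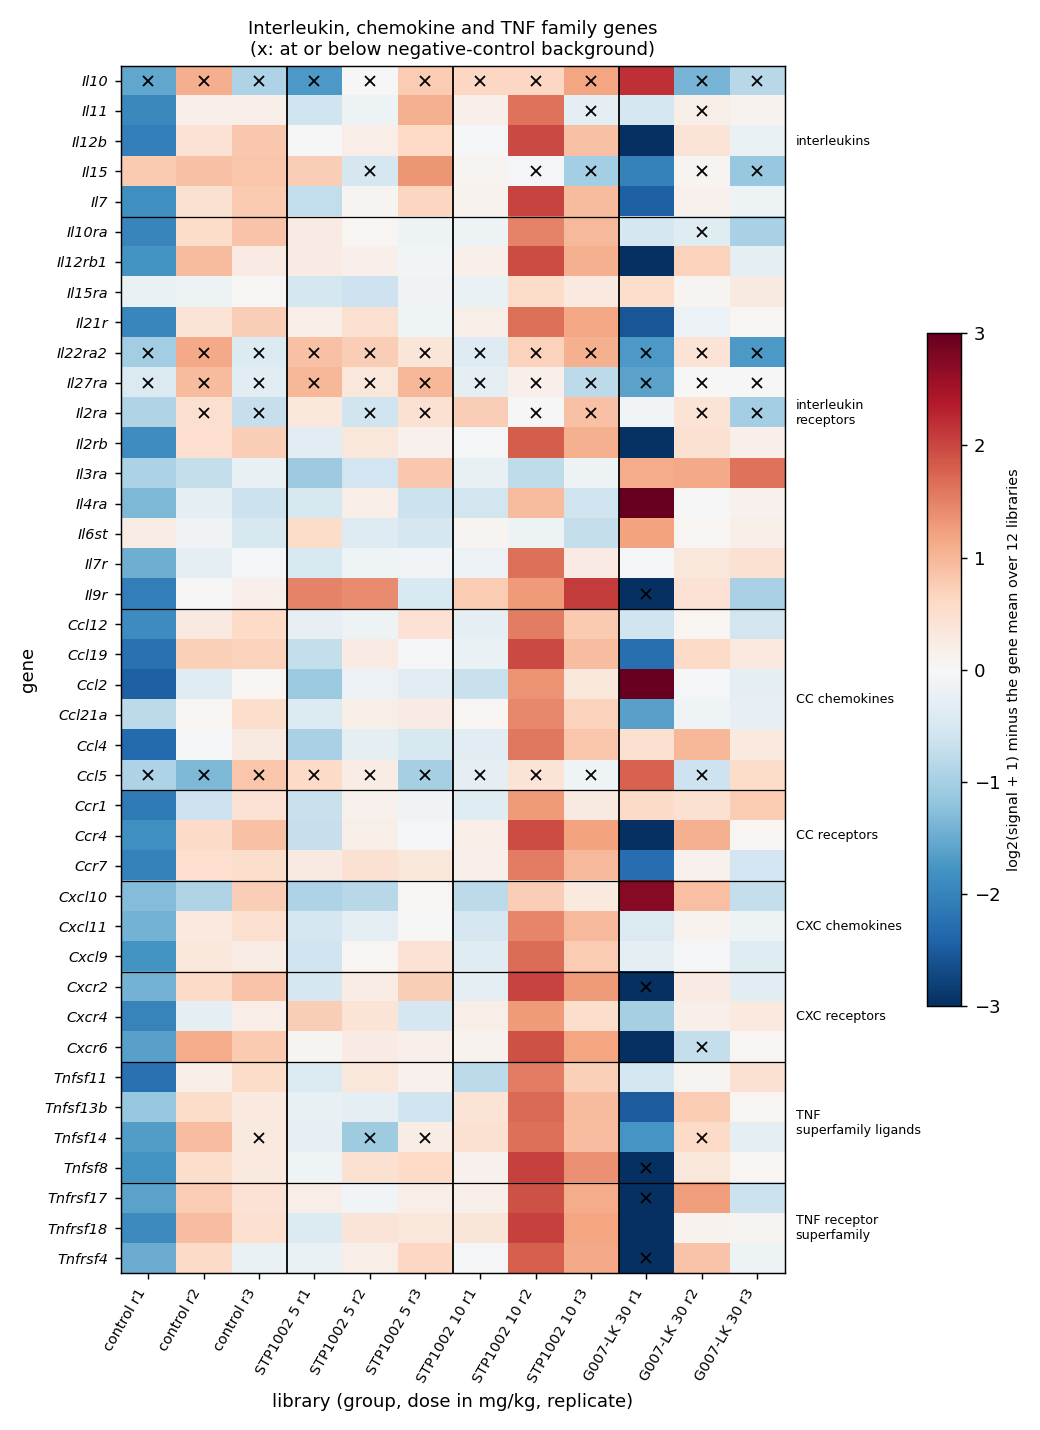
Heat map of 40 of the 41 genes (rows, by role) in 12 libraries (columns, by group). Colour gives log2(signal + 1) minus the gene's mean over the 12 libraries, with colours clipped at -3 and 3, and crosses mark values at or below background. The column of STP1002 10 mg/kg replicate 2 was high for most genes (29 of 41 had their maximum there), and those of control replicate 1 and G007-LK replicate 1 were low (35 of 41 had their minimum in one of them).

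The most general feature of the family was a shared ordering of the libraries, which much of the panel also had. The signal was highest in STP1002 10 mg/kg replicate 2 for 29 of the 41 genes (70.7%), against 437 of 780 panel genes (56.0%). The minimum lay in control replicate 1 or G007-LK replicate 1 for 35 of 41 (85.4%), against 504 of 780 (64.6%). All 4 CC receptors, all 3 CXC receptors, all 3 TNF receptors and all 4 TNF ligands followed both patterns. Per library, the median signal of the 41 genes was 13.0 for G007-LK replicate 1 and 19.8 for control replicate 1. It lay between 62.9 and 134 in 9 other libraries and reached 221 in STP1002 10 mg/kg replicate 2. Every group but STP1002 5 mg/kg thus held 1 library that stood apart from its partners.

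Recovered counts show what lies beneath these signals. In control replicate 1 the 41 genes had a median count of 45, and in G007-LK replicate 1 of 43, inside the range of 19 to 115 over all libraries, although these 2 libraries held the most counts in total. Control replicate 1 held 9.20 times the counts of control replicate 3. Over the 35 member genes above background in both, the median ratio of counts was 1.84, and 1 gene, Il6st, reached the depth ratio. Over the 628 panel genes above background in both, the median ratio was 4.21 and 149 (23.7%) reached it. Between G007-LK replicates 1 and 2 the depth ratio was 10.1. There the 26 member genes above background in both had a median ratio of 4.56, and 11 of them a ratio under 2. The median of panel genes above background in both was 4.32. Ccl2, Cxcl10, Il15ra, Il4ra and Il6st reached the depth ratio, 19.2% against 26.3% of panel genes. The filter left out Cxcr2, Il9r, Tnfrsf17, Tnfrsf4 and Tnfsf8, at or below background in replicate 1 but not in replicate 2. Their counts were 14, 11, 12, 11 and 13 in replicate 1 and 26, 41, 55, 26 and 36 in replicate 2. Others left out went the other way, such as Ccl5 (103 and 2) and Il10ra (112 and 15). Il6st encodes gp130, the signalling subunit shared by receptors of the IL-6 family, and its counts in the controls were 376, 49 and 26.

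**Figure D2:**
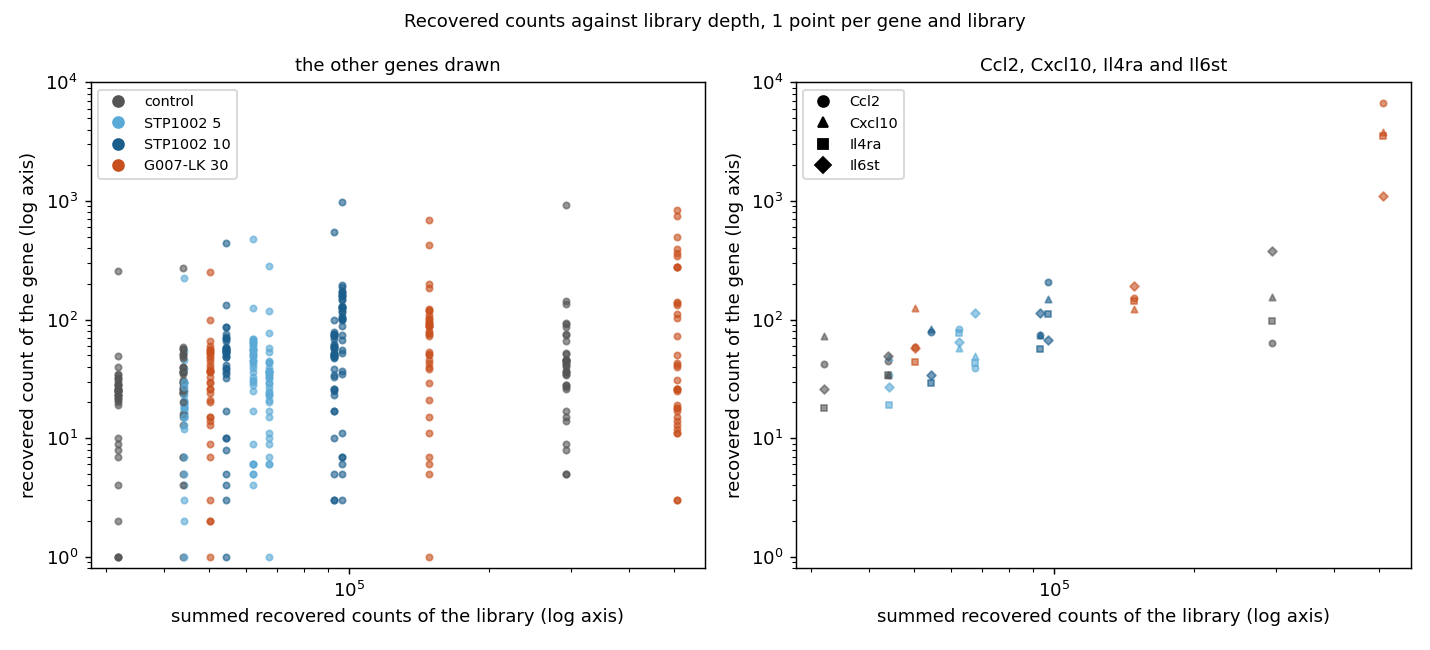
Recovered counts (vertical log axis) against the summed counts of the library (horizontal log axis), 1 point per gene and library, coloured by group, for 40 of the 41 genes. Most are drawn together, and a second panel gives a symbol each to Ccl2, Cxcl10, Il4ra and Il6st. Between these 2 control libraries member counts rose little with depth: the median was 45 in control replicate 1 (293538 counts) and 25 in control replicate 3 (31901 counts). Ccl2 reached 6661 in G007-LK replicate 1.

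Differences between groups were tested with limma on log2(signal + 1) over all 780 genes, with Benjamini-Hochberg adjustment. None of the 41 genes passed an adjusted p of 0.05 in any of the 6 comparisons between groups, or in the test of any difference among the 4 groups. In G007-LK against control, 27 panel genes (3.46%) passed. In G007-LK against STP1002 10 mg/kg and 5 mg/kg, 24 (3.08%) and 22 (2.82%) passed, and in the other 3 comparisons 0 passed. The test of any difference called 21 panel genes (2.69%). At an unadjusted p under 0.05, 5 member genes (12.2%) passed in G007-LK against control, against 13.2% of the panel. One passed in STP1002 10 mg/kg against control (panel 4.62%), 0 in STP1002 5 mg/kg against control (panel 2.31%) and 0 between the STP1002 doses (panel 2.31%). The numbers were 11 in G007-LK against STP1002 10 mg/kg (26.8%, panel 24.9%) and 4 in G007-LK against STP1002 5 mg/kg (9.76%, panel 12.7%). These shares were near those of the panel. Count models on the recovered counts called 1 member gene with edgeR (panel 4.1%) and 3 with DESeq2 (panel 6.03%) in G007-LK against control. In G007-LK against STP1002 10 mg/kg they called 1 with edgeR (panel 2.69%) and 2 with DESeq2 (panel 8.72%), and against STP1002 5 mg/kg 0 (panel 1.54%) and 2 (panel 7.31%). Both tools called 0 panel genes in the other 3 comparisons.

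Group levels that do not overlap are a second description. In G007-LK against control, 6 of 41 genes (14.6%) had all 3 treated mice above all 3 controls, against 10.1% of the panel. They were Ccl4, Ccr1, Il15ra, Il3ra, Il4ra and Il7r. Il15 was the 1 gene with all treated mice lower (panel 7.95%). In STP1002 10 mg/kg against control, Il9r was higher without overlap (panel 9.36%) and Il15 lower (panel 2.82%). In STP1002 5 mg/kg against control there were 0 in either direction (panel 2.82% higher and 1.92% lower). These comparisons share the control mice.

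**Figure D3:**
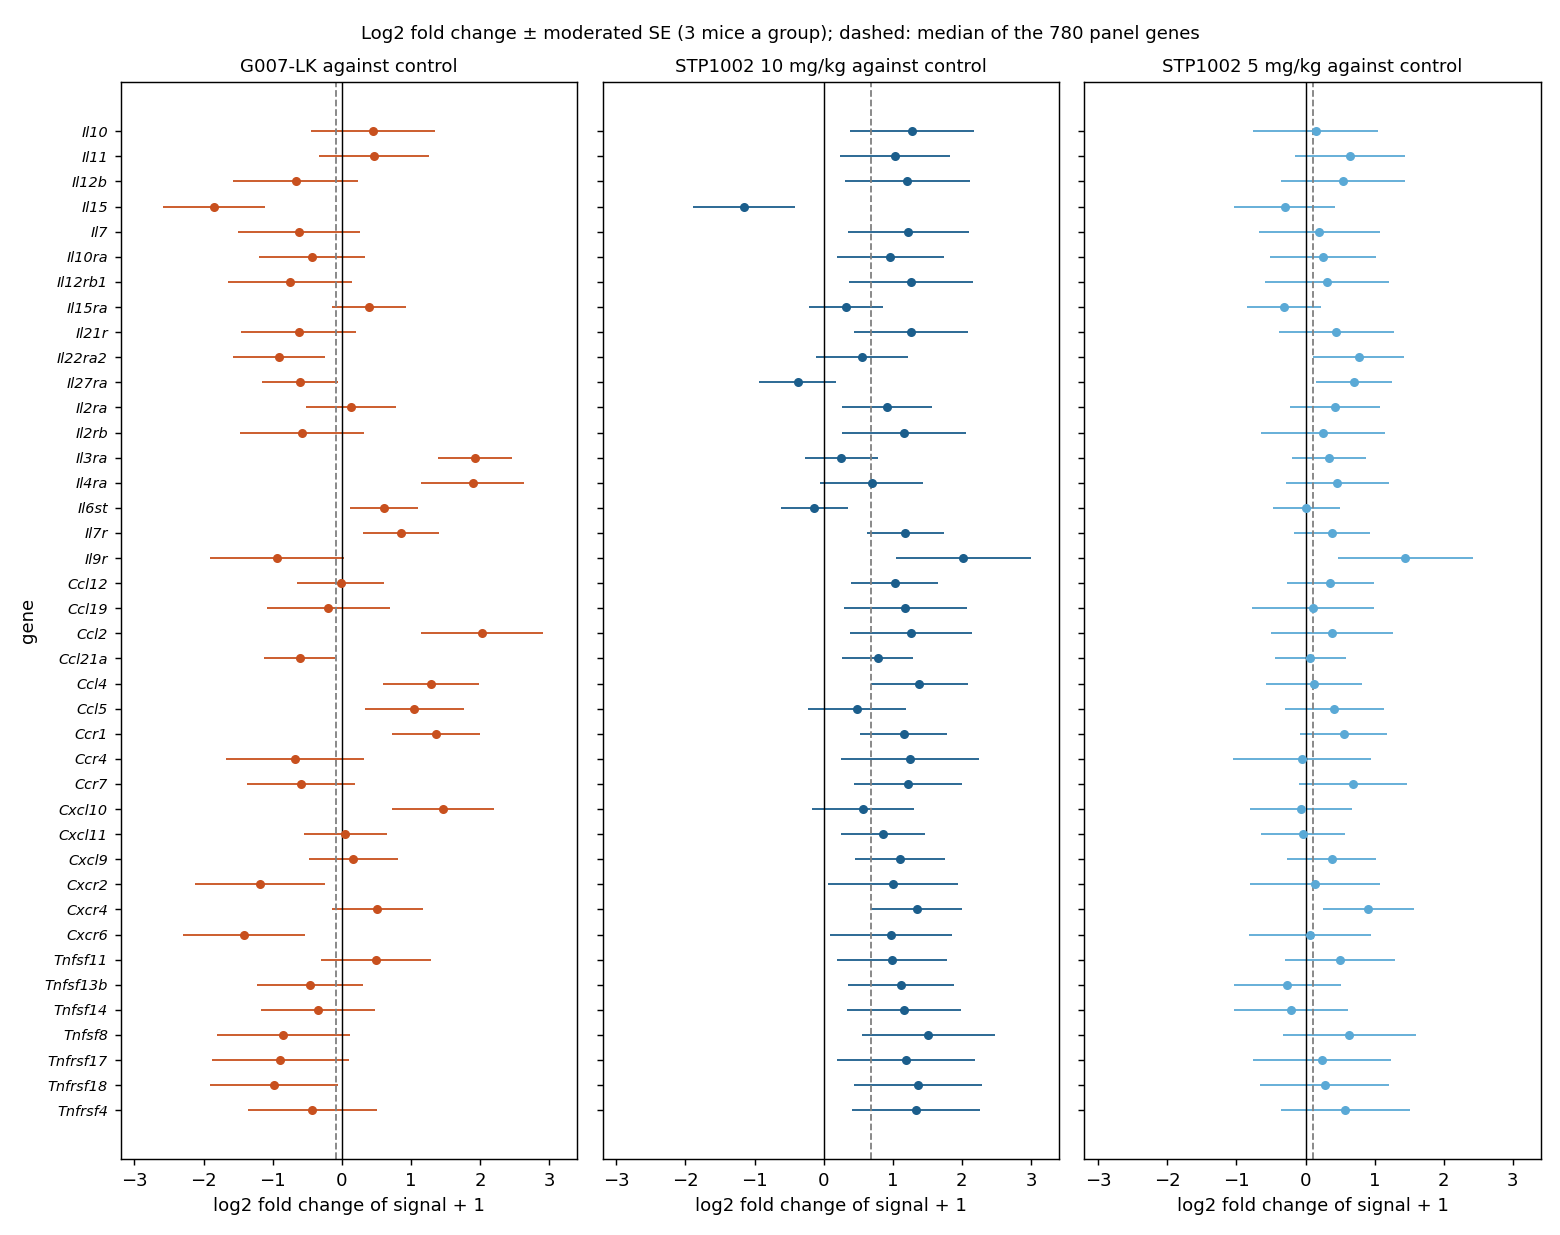
Log2 fold change of signal + 1 (horizontal axis) of 40 of the 41 genes (vertical axis) in each treatment group against control, as points with the moderated SE, 3 mice a group. The dashed line is the median of the 780 panel genes. In STP1002 10 mg/kg 38 of 41 fitted differences lay above 0 (panel 77.7%) and in G007-LK 17 of 41 (panel 45.1%).

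Of the 5 interleukins, Il12b and Il7 were above background in all 12 libraries. Il15 encodes a cytokine that maintains NK cells and intraepithelial lymphocytes. Its signal in the controls was 37.9, 40.4 and 39.2, all above background and within a narrow range. In STP1002 5 mg/kg mice it was 36.97, 15.0 and 55.8, with the second value below background. In STP1002 10 mg/kg mice it was 22.8, 21.1 and 10.1, and in G007-LK mice 4.53, 23.0 and 9.37, with 1 value of 3 above background in each of these groups. All 3 mice of both groups thus lay under all controls, but most of those readings are only upper bounds. The fitted log2 fold change for G007-LK against control was -1.85 (SE 0.73, limma adjusted p = 0.228). With every value raised to a common background of 40.4, the highest of any library, it was -0.0006. That background lies at the control level, so this refit could not show a fall and cannot size it. Most G007-LK readings were at or below background, which leaves the size of the Il15 difference undetermined at this depth.

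Il12b encodes the p40 subunit shared by IL-12 and IL-23. Its signal was 16.3, 97.0 and 125 in the controls and 7.86, 94.6 and 62.2 in G007-LK mice. In STP1002 5 mg/kg mice it was 72.1, 81.7 and 108, and in STP1002 10 mg/kg mice 69.7, 282 and 132. The groups overlapped throughout. Il7, a growth factor of lymphocytes, averaged 53.1 ± 36.4 (SD, n = 3) in the controls, 50.7 ± 23.3 in STP1002 5 mg/kg, 112 ± 73.6 in STP1002 10 mg/kg and 33.9 ± 22.9 in G007-LK mice. Il11, a cytokine of the IL-6 family, was above background in 10 of 12 libraries and ranged from 7.49 to 99.8.

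Among the interleukin receptors, Il3ra came closest to a call. Il3ra encodes the alpha subunit of the IL-3 receptor, found on basophils, mast cells and other myeloid cells. Its signal was 59.0, 70.1 and 97.9 in control mice and 252.1, 253 and 360.2 in G007-LK mice. It was 53.6, 76.7 and 201 in STP1002 5 mg/kg mice and 99.2, 67.2 and 104 in STP1002 10 mg/kg mice. All 3 G007-LK mice lay above all 9 others. The log2 fold change of G007-LK against control was 1.93 (SE 0.53, limma adjusted p = 0.0548). It lay between 1.76 and 2.13 when any 1 library was left out, and it was past the threshold in 6 of 23 alternatives. Against STP1002 10 mg/kg the log2 fold change was 1.67 (SE 0.53, limma adjusted p = 0.112), and against STP1002 5 mg/kg it was 1.59 (SE 0.53, adjusted p = 0.151). The myeloid and the fibroblast marker sums given above separate G007-LK from control mice in the same direction. Their part in the Il3ra difference was not tested.

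The promoters of 4 genes are shown because their values are the ones the G007-LK results turn on, or, for Cxcl9, because it is the close relative that lies beside one of them. The sequences are RefSeq's for GRCm38.p6, from 250 bases before to 50 after the gene start, 5′ to 3′ along the gene's strand. Capitals mark letters that match, on either strand, the NF-kB consensus, an interferon-response motif (GAAANNGAA), a STAT motif (TTCNNNGAA) or TATAAA.
Il3ra, chr14:14346245-14346544, + strand: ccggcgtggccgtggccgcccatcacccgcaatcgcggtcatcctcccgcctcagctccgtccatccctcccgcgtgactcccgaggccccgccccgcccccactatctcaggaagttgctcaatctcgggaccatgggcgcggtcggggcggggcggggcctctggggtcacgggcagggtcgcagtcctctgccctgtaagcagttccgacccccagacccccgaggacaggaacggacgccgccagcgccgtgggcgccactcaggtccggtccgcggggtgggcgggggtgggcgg
Il4ra, chr7:125552021-125552320, + strand: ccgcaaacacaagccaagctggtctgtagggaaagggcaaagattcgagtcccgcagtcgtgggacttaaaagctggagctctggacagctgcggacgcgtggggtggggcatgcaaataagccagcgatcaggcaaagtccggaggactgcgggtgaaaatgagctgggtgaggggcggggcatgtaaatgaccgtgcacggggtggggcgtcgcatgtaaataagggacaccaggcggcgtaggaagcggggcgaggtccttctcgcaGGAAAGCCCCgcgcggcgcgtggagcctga
Cxcl10, chr5:92348840-92349139, - strand: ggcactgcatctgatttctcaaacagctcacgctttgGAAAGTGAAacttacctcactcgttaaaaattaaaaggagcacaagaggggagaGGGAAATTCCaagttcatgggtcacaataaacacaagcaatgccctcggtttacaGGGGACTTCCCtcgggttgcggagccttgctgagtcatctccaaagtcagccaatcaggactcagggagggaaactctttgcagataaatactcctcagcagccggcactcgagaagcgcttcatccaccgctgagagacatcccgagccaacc
Cxcl9, chr5:92328030-92328329, - strand: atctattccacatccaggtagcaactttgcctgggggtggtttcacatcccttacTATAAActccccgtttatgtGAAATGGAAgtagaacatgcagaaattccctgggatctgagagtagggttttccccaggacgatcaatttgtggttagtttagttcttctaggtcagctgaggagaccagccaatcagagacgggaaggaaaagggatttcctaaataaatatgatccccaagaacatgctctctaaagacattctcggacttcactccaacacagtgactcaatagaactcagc

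Counted from 1 at the 5′ end, the Cxcl10 window held the interferon-response motif at bases 38 to 46 and the NF-kB consensus at bases 92 to 101, 147 to 156 and 148 to 157, of which the last pair overlap. The Cxcl9 window held TATAAA at bases 56 to 61 and the interferon-response motif at bases 76 to 84. The Il4ra window held the NF-kB consensus at bases 271 to 280, after the gene start, and none of these letters were found in the Il3ra window. Over all 32851 mouse promoter windows, 8.46% held the NF-kB consensus, 8.56% the interferon-response motif, 8.30% the STAT motif and 13.6% TATAAA. Of the 27 member genes with a window, 4 held the NF-kB consensus, 8 the interferon-response motif, 2 the STAT motif and 5 TATAAA. A match describes the letters and does not show binding. With a looser spelling of the NF-kB motif and a longer one of the interferon-response motif, searched first, the Cxcl9 window matched the former and not the latter.

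Il4ra encodes the alpha chain of the IL-4 and IL-13 receptors. Its signal was 42.7, 91.6 and 70.5 in the controls and 1071, 112 and 121 in G007-LK mice. In STP1002 5 mg/kg mice it was 79.5, 128 and 70.7, and in STP1002 10 mg/kg mice 75.03, 215 and 73.5. G007-LK replicate 1, with a recovered count of 3543, stood far above the rest. The other 2 G007-LK mice were above all controls but within the STP1002 values. The log2 fold change of G007-LK against control was 1.89 (SE 0.75, limma adjusted p = 0.221), and it was 0.83 without G007-LK replicate 1 and 0.53 without the 2 deepest libraries.

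Il9r encodes the receptor for IL-9, a cytokine of mast cells and lymphocytes. Its signal was 17.6, 78.1 and 86.1 in the controls and 133, 190 and 335 in STP1002 10 mg/kg mice. It was 218, 207 and 55.8 in STP1002 5 mg/kg mice and 3.33, 105 and 39.2 in G007-LK mice, the first of which was below background. All STP1002 10 mg/kg mice were above all control and all G007-LK mice, while the STP1002 5 mg/kg group overlapped both. Chosen after its values were seen, the STP1002 10 mg/kg difference from control was 2.02 on the log2 scale (SE 0.97, limma adjusted p = 0.464), and that of STP1002 5 mg/kg was 1.44 (SE 0.97, adjusted p = 0.998). Without control replicate 1 they were 1.30 and 0.73. The fitted log2 difference of G007-LK was -2.95 from STP1002 10 mg/kg (SE 0.97, limma adjusted p = 0.124) and -2.38 from STP1002 5 mg/kg (SE 0.97, adjusted p = 0.285). Without G007-LK replicate 1 these were -1.65 and -1.07. Summed signals of 6 B-cell markers were 94.4 to 419 in the controls, 372 to 1814 in STP1002 5 mg/kg, 1039 to 1182 in STP1002 10 mg/kg and 102 to 491 in G007-LK mice. Of the 6 markers 4 were above background in all libraries, and Blk was at the floor in control replicate 1. Their part in the Il9r values was not tested.

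Il7r, the receptor subunit through which IL-7 sustains lymphocytes, was the 1 member gene under an unadjusted p of 0.05 in STP1002 10 mg/kg against control. Its signal was 40.5, 94.3 and 110 in the controls and 100 in the first, 363 in the second and 137 in the last STP1002 10 mg/kg mouse. The groups overlapped. The log2 fold change was 1.18 (SE 0.56, limma adjusted p = 0.464), and after median-ratio rescaling it was 0.49. It was 0.74 without control replicate 1 and 0.64 without STP1002 10 mg/kg replicate 2. Il6st was 166, 132 and 102 in the controls, 209, 108 and 100 in STP1002 5 mg/kg, 151, 129 and 86.2 in STP1002 10 mg/kg and 332, 148 and 162 in G007-LK mice, with all groups overlapping.

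Of the 6 CC chemokines, Ccl2 had the largest fitted difference from control in G007-LK mice. Ccl2 encodes the main attractant of monocytes. Its signal was 27.8, 121 and 164 in the controls and 2013, 151 and 129 in G007-LK mice. It was 72.1, 138 and 126 in STP1002 5 mg/kg mice and 99.2, 401 and 200.3 in STP1002 10 mg/kg mice. Replicate 1 of G007-LK, with a recovered count of 6661, lay above all other libraries, while replicates 2 and 3 lay within the control range. The log2 fold change was 2.03 (SE 0.89, limma adjusted p = 0.309). It was 0.75 without G007-LK replicate 1, 1.26 without control replicate 1 and -0.02 without both.

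Ccl21a encodes a chemokine that directs naive lymphocytes and dendritic cells to lymphoid tissue through Ccr7. Its signal was 407, 733 and 1014 in the controls and 527, 797 and 830 in STP1002 5 mg/kg mice. It was 726, 1893 and 1123 in STP1002 10 mg/kg mice and 226, 639 and 592 in G007-LK mice. All G007-LK mice were below all STP1002 10 mg/kg mice, and the fitted log2 difference was -1.39 (SE 0.51, limma adjusted p = 0.147) and -0.91 without G007-LK replicate 1. Both groups overlapped the controls. Near-identical Ccl21 copies lie beside each other in the mouse genome, and which of them the probe reads is not given in the sources used here. Ccl12, a monocyte attractant close to Ccl2, averaged 126 ± 82.6 (SD, n = 3) in the controls, 131 ± 34.9 in STP1002 5 mg/kg, 232 ± 134 in STP1002 10 mg/kg and 101 ± 27.5 in G007-LK mice. Ccl4, an attractant of macrophages and T cells, was 15.9, 80.8 and 102 in the controls and 118, 169 and 103 in G007-LK mice. The closest of these Ccl4 values, 102 and 103, differed by less than the spread within either group.

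The CC chemokine receptors were above background throughout. Ccr1, carried by monocytes and neutrophils, was 22.5, 64.7 and 137 in the controls and 151, 138 and 170.3 in G007-LK mice. It was 62.9, 110.0 and 93.0 in STP1002 5 mg/kg mice and 77.7, 244 and 122 in STP1002 10 mg/kg mice. The G007-LK mice were above all controls, narrowly for replicate 2. The log2 fold change was 1.36 (SE 0.63, limma adjusted p = 0.372), and 0.69 without control replicate 1. Ccr4, a receptor of T cells, and Ccr7, a receptor of cells homing to lymph nodes, had fitted log2 folds for G007-LK of under 0, and the lowest level of each was in G007-LK replicate 1 (5.14 and 13.0). In STP1002 10 mg/kg mice Ccr1, Ccr4 and Ccr7 had log2 folds against control of 1.16, 1.25 and 1.22, and each peaked in replicate 2. None of these differences passed the test.

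The CXC chemokines Cxcl9, Cxcl10 and Cxcl11 are interferon-induced attractants of activated T cells that share the receptor Cxcr3. Cxcl10 was 68.7, 91.6 and 286 in the controls and 1151, 322 and 104 in G007-LK mice. It was 90.6, 96.7 and 179 in STP1002 5 mg/kg mice and 99.2, 288 and 210.4 in STP1002 10 mg/kg mice. The groups overlapped, and G007-LK replicate 1 was again the highest, with a recovered count of 3807. Chosen after its values were seen, its log2 fold change was 1.47 (SE 0.74, limma adjusted p = 0.430), and it was 0.58 without that library and 2.31 without G007-LK replicate 3. Cxcl9 averaged 94.2 ± 56.6 (SD, n = 3) in the controls and 88.0 ± 10.3 in G007-LK mice, and Cxcl11 112 ± 61.7 and 101 ± 18.5. RefSeq annotates mouse Cxcl11 as a transcribed pseudogene in the reference strain, and the strain used is not given.

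**Figure D4:**
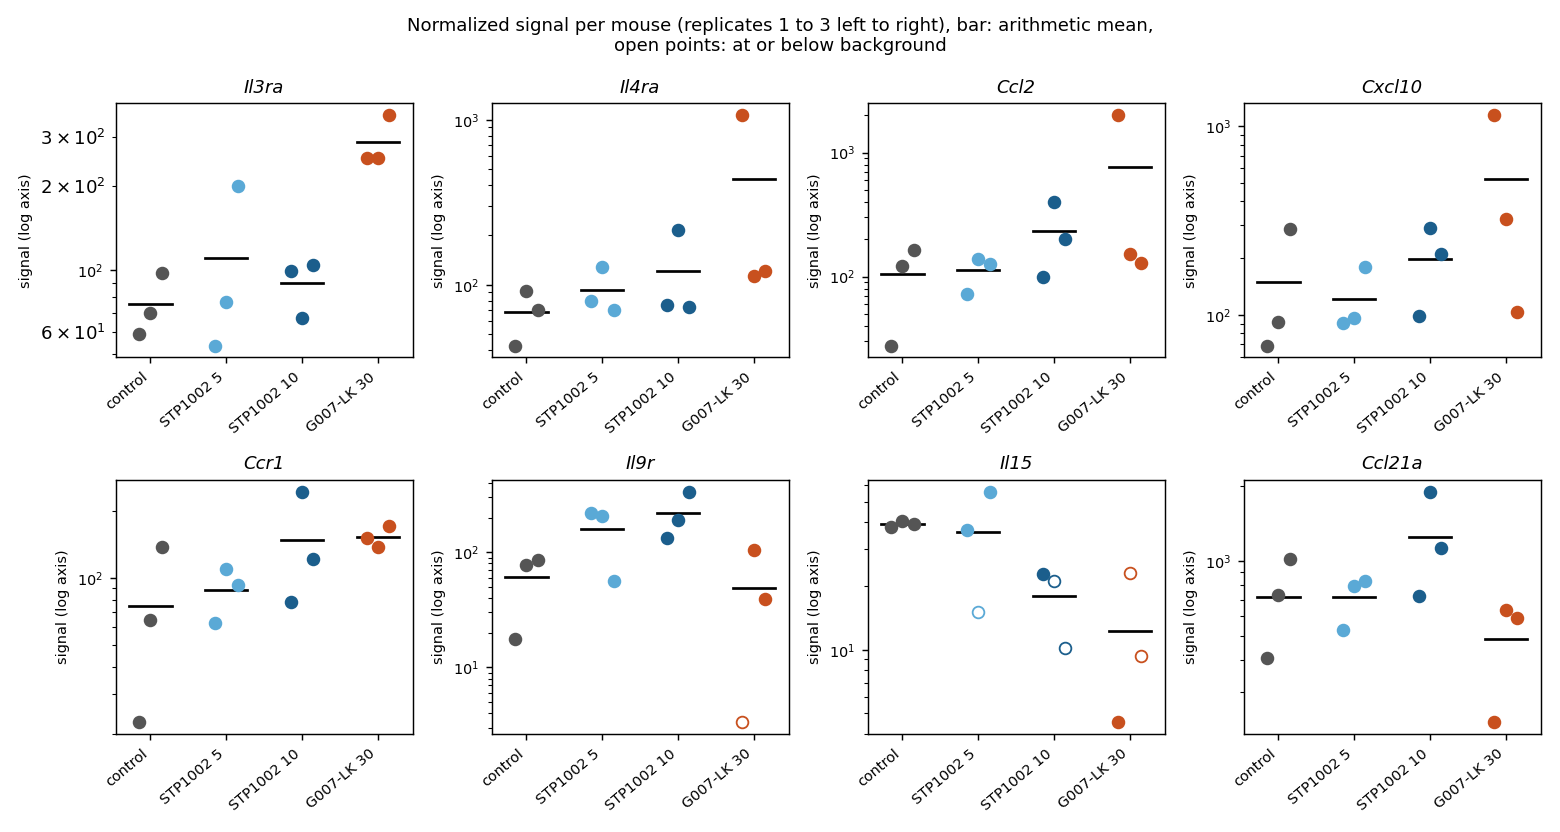
Normalized signal (log axes) of 8 genes in the 4 groups, 1 point per mouse with replicates 1 to 3 from left to right, a bar at the arithmetic mean, and open points at or below background. Il3ra was above all other mice in the 3 G007-LK mice (252.1 to 360.2), while Il4ra, Ccl2 and Cxcl10 were far above the other values in 1 G007-LK mouse.

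The 3 CXC receptors were low in G007-LK replicate 1 (Cxcr2 4.23, at or below background, Cxcr4 42.3 and Cxcr6 5.44) and highest in STP1002 10 mg/kg replicate 2. Cxcr6, carried by tissue-resident T and NK cells, was 19.8, 137 and 110 in the controls and 5.44, 38.3 and 65.6 in G007-LK mice. It was 66.6, 75.02 and 70.7 in STP1002 5 mg/kg mice and 68.3, 242 and 144 in STP1002 10 mg/kg mice. The second G007-LK value was at or below background. G007-LK was below both STP1002 groups without overlap, although the closest values of G007-LK and STP1002 5 mg/kg were 65.6 and 66.6. The fitted log2 fold change against STP1002 10 mg/kg was -2.39 (SE 0.88, limma adjusted p = 0.148), or -1.40 without G007-LK replicate 1. Cxcr2, the neutrophil receptor, and Cxcr4, the receptor of Cxcl12, overlapped between all groups.

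The 4 TNF superfamily ligands followed the same order of libraries. Tnfsf8 encodes the CD30 ligand, Tnfsf13b the B-cell survival factor BAFF, Tnfsf11 the NF-kB activator RANKL and Tnfsf14 the lymphotoxin receptor ligand LIGHT. Tnfsf8 was 20.3, 105 and 90.1 in the controls, 66.6, 100.02 and 112 in STP1002 5 mg/kg, 80.4, 305 and 190.1 in STP1002 10 mg/kg and 3.93, 92.0 and 75.8 in G007-LK mice. Its G007-LK value in replicate 1 was below background. The log2 fold change of G007-LK against STP1002 10 mg/kg was -2.36 (SE 0.96, limma adjusted p = 0.180), and it was -0.99 without that library. Tnfsf13b was 32.6, 108 and 90.1 in the controls and 62.9, 60.01 and 48.4 in STP1002 5 mg/kg mice, below the 97.8, 240 and 142 of STP1002 10 mg/kg mice without overlap. Tnfsf11 and Tnfsf14 overlapped between each treatment group and the controls, and Tnfsf14 was above background in 8 of 12 libraries.

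Among the TNF receptors, Tnfrsf18 encodes GITR, Tnfrsf4 OX40, both costimulators of T cells, and Tnfrsf17 BCMA, a receptor of plasma cells. Tnfrsf18 was 20.3, 151 and 110 in the controls, 59.2, 103 and 100.5 in STP1002 5 mg/kg, 102, 328 and 180.0 in STP1002 10 mg/kg and 5.44, 84.4 and 83.5 in G007-LK mice. Its log2 fold change of G007-LK against STP1002 10 mg/kg was -2.35 (SE 0.93, limma adjusted p = 0.175), and it was -1.11 without G007-LK replicate 1. Tnfrsf4 and Tnfrsf17 were below background in G007-LK replicate 1 and in no other library. For all 3 receptors the fitted difference of G007-LK from control was under 0, between -0.98 and -0.43, with no adjusted p below 0.773.

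For the family as a whole, the fitted differences of STP1002 10 mg/kg from control were above 0 for 38 of 41 genes, against 606 of 780 panel genes (77.7%). The median log2 fold change was 1.16 against 0.69 over the panel. Median-ratio rescaling moved the panel median to 0.01, and the member median was then 0.47, with 33 of 41 above 0. Without control replicate 1 the medians were 0.40 for the members and 0.37 for the panel. The 26 T and NK cell markers measured, of which 13 were above background in all libraries, summed to 504 to 1730 in the controls and 1263 to 4353 in STP1002 10 mg/kg mice. Of these markers, 23 of 26 had a fitted difference above 0 (panel 77.7%). Cd8a and Gzmk were at the floor in G007-LK replicate 1. Their part in the family's shift was not tested, and 0 of 780 genes were called in that comparison. In STP1002 5 mg/kg mice 34 of 41 genes were above 0 (panel 63.6%), with medians of 0.34 and 0.12. Without control replicate 1 the direction turned, to -0.37 and -0.19.

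In G007-LK mice 17 of 41 genes had a fitted difference above 0 (panel 45.1%), with a median of -0.40 against -0.09 over the panel. Without G007-LK replicate 1 the medians were 0.38 and 0.27, and without control replicate 2 they were 0.08 and 0.09, so the direction of the family's median turned with either library. The medians stayed under 0 without control replicate 1, at -0.98 and -0.40, and without the 2 deepest libraries, at -0.29 and -0.07. Of the 13 interleukin receptors 6 were above 0, of the 6 CC chemokines 3, and of the 3 CXC chemokines all 3. Among the last, Cxcl11 and Cxcl9 were above 0 by only 0.05 and 0.17. Of the 5 interleukins 2 were above 0, of the 4 TNF ligands 1, and of the 3 TNF receptors 0. The CC and CXC receptors are not broken down here.

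Set directly against each other, G007-LK and STP1002 10 mg/kg differed by a member median of -1.37 and a panel median of -0.74, and after median-ratio rescaling by -0.66 and -0.03. Without G007-LK replicate 1 they were -0.64 and -0.42. All 3 G007-LK mice were below all 3 STP1002 10 mg/kg mice for 8 genes (19.5%, panel 16%), among them Ccl21a, Ccr7, Cxcr6, Il10ra, Il21r, Il9r and Tnfrsf18, and above them for Il3ra (panel 6.15%). Against STP1002 5 mg/kg, G007-LK was higher without overlap for Ccl4, Ccr1, Il15ra, Il3ra and Il7r (12.2%, panel 10.5%) and lower for Ccr7, Cxcr6, Il10ra and Il27ra (9.76%, panel 9.49%). Il27ra stayed below background in both groups. Between the STP1002 doses, 4 genes, among them Ccr4, Tnfsf13b and Tnfsf14, were higher at 10 mg/kg without overlap (9.76%, panel 8.72%) and Il27ra lower (panel 1.92%), and no gene passed the adjusted threshold. Tnfsf14 was above background in 1 of 3 STP1002 5 mg/kg mice. The background of replicate 3 there, 35.2, exceeded the lowest Tnfsf14 value at 10 mg/kg, 30.8, so its separation is not resolved.

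Several of these genes lie side by side in the RefSeq annotation, and the signals of neighbours did not always move together. Cxcl9 and Cxcl10 have 1 coding gene between them, and Cxcl11 follows Cxcl10 directly. In G007-LK replicate 1 Cxcl10 was above its value in all 11 other libraries, whereas Cxcl9 (84.3) and Cxcl11 (83.1) lay within their control ranges. Ccl2 and Ccl12 have 2 coding genes between them. In the same library Ccl2 was above all its other values and Ccl12 (83.7) lay within its control range. Recovered counts there were 279 for Cxcl9, 275 for Cxcl11 and 277 for Ccl12, each the gene's highest over the 12 libraries. The lowest signal of each of these 3 genes was in control replicate 1, at 29.1, 41.4 and 33.5 in the same order. In control replicates 2 and 3 the signals were above those of G007-LK replicate 1. They were 132 and 121 for Cxcl9, 137 and 157 for Cxcl11 and 154 and 192 for Ccl12. Il4ra and Il21r, which encodes the IL-21 receptor, are adjacent, and there Il4ra was at its highest and Il21r (9.37) at its lowest. Adjacent Tnfrsf4 and Tnfrsf18 both peaked in STP1002 10 mg/kg replicate 2 and were lowest in G007-LK replicate 1, as were adjacent Ccl19 and Ccl21a, but 29 of the 41 genes had that maximum and 22 that minimum. Adjacent Il2ra and Il15ra peaked in different libraries, Il2ra being above background in 4 of 12.

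**Figure D5:**
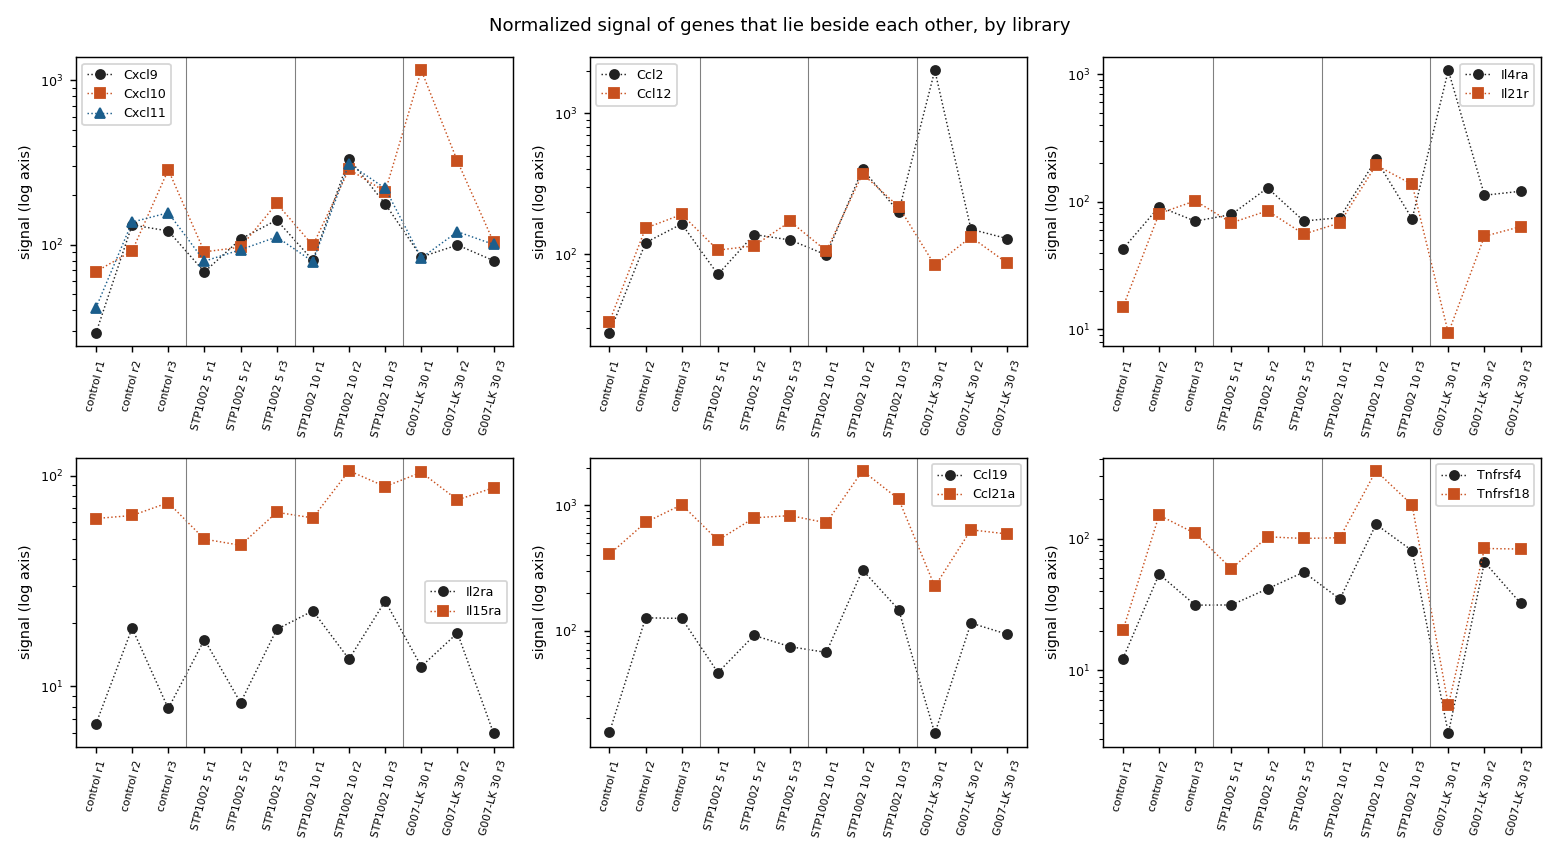
Normalized signal (log axes) of neighbouring genes in the 12 libraries, 1 panel per neighbourhood, with vertical lines between groups and dotted lines joining the libraries only to guide the eye. In G007-LK replicate 1 Cxcl10, Ccl2 and Il4ra were at 1151, 2013 and 1071 while Cxcl9, Cxcl11, Ccl12 and Il21r did not exceed 84.3. The Ccl19 and Ccl21a pair and the Tnfrsf4 and Tnfrsf18 pair kept the same order of highest and lowest libraries.

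Genes that act with these ligands and receptors were described from 4 lists. Of 21 interleukin signalling partners 10 were measured, of 24 TNF pathway partners 13, of 12 NF-kB core genes 6, and of 24 other chemokine, colony-stimulating factor and interferon genes 11. None was called by limma against control in any treatment group, where the panel share was 3.46% in G007-LK mice. Tnfaip3, the NF-kB inhibitor A20, had the smallest adjusted p among them in G007-LK against control. Its signal was 42.3, 80.8 and 70.5 in the controls and 2419, 151 and 179 in G007-LK mice. The fitted log2 difference was 2.68 (SE 0.78, limma adjusted p = 0.0787), and 1.39 without G007-LK replicate 1. Socs3, a feedback inhibitor of gp130 signalling, was 93.4, 119 and 129 in the controls and 1300.1, 215 and 259 in G007-LK mice. Its difference was 1.88 (SE 0.60, limma adjusted p = 0.1004), and 1.06 without that library. Ifnar1, a subunit of the type I interferon receptor, had 1.18 (SE 0.45, adjusted p = 0.202), and 0.65 without the 2 deepest libraries. Traf6, an adaptor of IL-1 and Toll-like receptors, was above background in 3 of 12 libraries and in none of the STP1002 10 mg/kg mice, and Relb, an NF-kB subunit, in 7 of 12 libraries. Their folds are not given, although the fit of G007-LK against STP1002 10 mg/kg called Traf6 (limma adjusted p = 0.0252). The medians of the lists in G007-LK mice against control were 0.35, 0.26, 0.65 and 0.70 in the order given, against -0.09 over the panel. In the same order 7, 9, 5 and 10 genes were above background in all 12 libraries. The medians also include the genes that were not, such as Traf6 and Relb. List medians were not taken without G007-LK replicate 1, where the panel median was 0.27.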

How the data were processed

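Total RNA from ileum, kept where the RNA integrity number was above 7.0, was hybridised to a panel that, per the labels, reads 760 tumour genes and 20 housekeeping genes. The authors deposited 1 table of linear normalized signal values. The normalization software is not given in the sources used here. Dividing each column by its smallest step gave whole numbers for 98.7% to 100% of genes in each library (tolerance 0.0051), so counts were recovered from the deposited signal. A few low genes sit at a floor of 1. Control probes were deposited as unscaled counts.

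Levels were compared on log2(signal + 1) with limma 3.58.1 in R 4.3.3, over all 780 genes and all 4 groups with a trended prior variance, and p-values were adjusted by the Benjamini-Hochberg method. The code was tested on simulated data. edgeR 4.0.16 and DESeq2 1.42.0 were run on the recovered counts as alternatives. A fold on this scale understates changes of low genes, and levels of different genes are not comparable because probes differ in efficiency. Each library is a separate mouse.

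The member genes, the marker and partner lists, the motifs and the tests were chosen with earlier results of these data known. Genes given a fold had an adjusted p under 0.05 or, where none did, an unadjusted p under 0.05, at most 10 a direction (5 between treatments). The STP1002 10 mg/kg folds of Ccr1, Ccr4 and Ccr7 were given outside this rule. One member gene is counted but its values are not reported here. Up to 4 genes of each role with the highest mean were given by level, and genes chosen otherwise are said to be. Marker lists also covered neutrophils, fibroblasts, endothelium and smooth muscle. In these, 0 of 4, 0 of 5, 0 of 5 and 0 of 1 genes were called against control in any treatment group. Fbn1, a fibroblast matrix gene, was called higher in G007-LK than in either STP1002 group. Promoter windows came from RefSeq for 27 of the 41 genes. Replicate numbers were checked for pairing: deviations of same-numbered mice from their group means correlated between 0.01 and 0.78 over 18 pairs, 15 of them above 0.1. Pairing required every pair to exceed 0.1, so the unblocked fit was kept, and the blocked fit is an alternative. Precision is set by 3 mice a group.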

Additional observations from a re-analysis of the deposited data

How the results depend on the processing

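Every comparison was refitted under up to 23 alternatives. Of 433 refits of the 19 named fold changes, 393 kept their direction and side of the threshold, 38 passed the threshold and 2 reversed: Ccl2 in G007-LK against control, at -0.0153 without the 2 deepest libraries, and Cxcl10 in the same comparison, at -0.48 with array weights. The cause was not tested. Counts below follow the order G007-LK against control, G007-LK against STP1002 10 mg/kg, G007-LK against STP1002 5 mg/kg, any difference. Panel genes called were 27, 24, 22 and 21. They were 47, 68, 57 and 64 with DESeq2, 14, 16, 6 and 11 after median-ratio rescaling, and 7, 2, 10 and 1 with a common background floor. edgeR gave 32, 21, 12 and 34, and leaving out the 2 deepest libraries 23, 38, 34 and 39, with 5 and 3 for STP1002 10 and 5 mg/kg against control. Fitting 2 groups alone gave 15, 21 and 1, and 2 for STP1002 10 mg/kg against control. Array weights, whose estimation did not converge, gave 160, 491, 126 and 625, and 283, 17 and 388 for STP1002 10 mg/kg, STP1002 5 mg/kg and the difference between the doses. With the replicate number as a block they were 63, 260, 61 and 110. Of 18 same-number pairs 15 correlated above 0.1, short of the every-pair requirement, and 7 of 12 libraries correlated best with their own number. Member genes called, 0 in each of these tests, were 3, 2, 2 and 2 with DESeq2, 1, 1, 0 and 2 with edgeR, 1, 19, 2 and 6 with the replicate block, and 4, 31, 3 and 34 with array weights, which also gave 9 for STP1002 10 mg/kg against control and 28 between the doses. Il3ra was the 1 member called in G007-LK against control with pseudocount 8, and in G007-LK against STP1002 10 mg/kg 1 was called after median-ratio rescaling, 1 after quantile normalization and 2 without the 2 deepest libraries, which gave 1 against STP1002 5 mg/kg. Leaving out 1 library at a time gave 16 to 47, 3 to 53, 7 to 33 and 9 to 29 panel genes, 0 to 1, 0 to 3, 0 to 1 and 0 member genes, and 0 in the other 3 comparisons for both. Background set by 8 negative probes limits Il15, Il10, Ccl5, Il2ra and Tnfsf14, and groups of 3 mice were too small to test a library as an outlier.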
